A study of Mus musculus with 3 samples.

Results

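Laminins and integrins, the chains of the basement membrane and of its cell surface receptors, were read in the ileum, caecum and colon of the mouse embryo at E13.5. The genes were taken by symbol from the deposited gene table, as laminin alpha, beta and gamma chains (Lama, Lamb and Lamc with a number), integrin alpha chains (Itga with a number or letters) and integrin beta chains (Itgb with a number). This gave 36 genes of 33762 features, namely 11 laminins, 17 integrin alpha chains and 8 integrin beta chains. The rule used symbols and no measured value, but it was set with earlier results of these data known. Of the 36, 34 had at least 20 counts in a library, and Itgax and Itgad, both alpha chains of leukocytes, stayed below this in all 3.

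Laminins are secreted trimers of an alpha, a beta and a gamma chain, and the sheet they form is the base on which an epithelium, a vessel or a muscle layer rests. Integrins are pairs of an alpha and a beta chain that span the cell membrane, bind laminin, collagen, fibronectin or proteins on other cells, and tie them to the actin or keratin skeleton. In the gut wall the alpha chain of a laminin is known to vary with position and cell layer, while the chains encoded by Lamb1 and Lamc1 are shared by many trimers.

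All 3 samples were wild type, of strain Bl6/C57, untreated, and of age E13.5, with 1 sample each of ileum, caecum and colon. The ileum was the portion presumed to be ileum when the small intestine was split into 3 parts of the same length. Each sample was a whole segment, so all layers of the wall entered it, and whether embryos were pooled was not given in the sources used here. Each sample has 2 columns in the table, which agree within counting noise and count here as a single library of n = 1.

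Library totals were 50079617 to 64439701 counts. Of the segment markers, Cdx2, an intestinal homeobox gene, was counted in all 3 libraries, Gata4 had 702 counts in the ileum against 4 in the caecum and 58 in the colon, and Hoxd13 had 2354 in the colon against 1 in the ileum and 13 in the caecum. Folds below are ratios of scaled counts, and brackets give 95% intervals, which cover counting error only. With 1 library per segment no difference has a replicate check, no p-value is given, and a gene is called apart where the libraries differ by 2-fold or more and the higher one has at least 20 counts. In whole segments, fewer cells of a type and less RNA per cell cannot be told apart.

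The same chains were most abundant in every segment. By RPKM, which is reads per kilobase of gene, scaled to library size, and so allows levels of different genes to be compared, Itgb1, the beta chain shared by most laminin, collagen and fibronectin receptors, stood far above all others at 220.1 in the ileum, 181 in the caecum and 211 in the colon. Lamb1 and Lamc1, the beta and gamma chains common to many laminins, followed among the laminins with 41.9, 36.1 and 33.1 RPKM and with 35.0, 25.9 and 31.0 RPKM in that order of segments. Itgb5, a partner of Itgav, had 24.0, 26.1 and 28.7 RPKM. At the other end, Lamc3, Itga7 and the leukocyte chains Itgam and Itgae stayed below 0.2 RPKM in all 3 libraries.

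**Figure D1:**
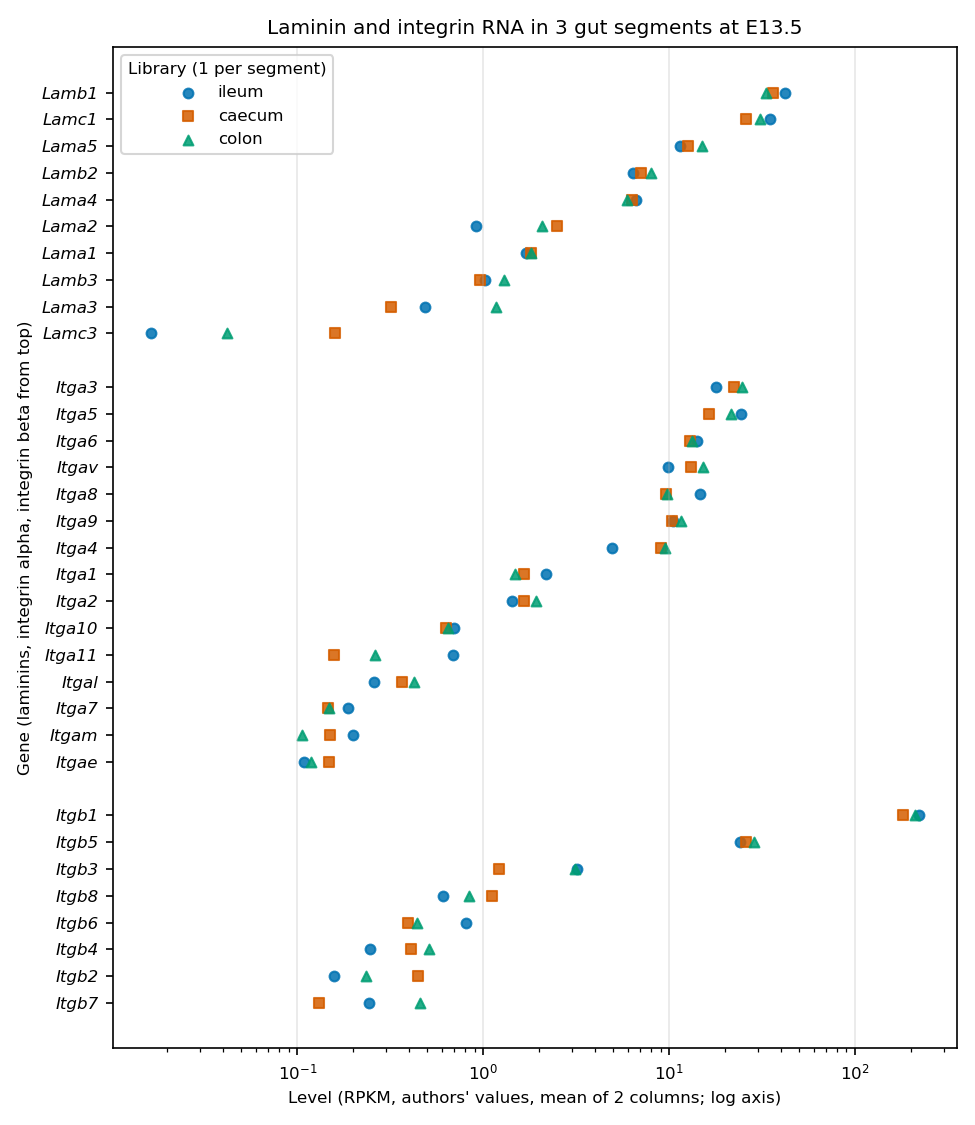
Level of 33 genes with at least 20 counts in a library, in RPKM on a log axis, 1 point per library (circle ileum, square caecum, triangle colon), ordered by mean level within laminins, integrin alpha and integrin beta chains. The points of the abundant chains lie close together, and Lamc3, Itga11, Lama3, Itgb7, Itgb2, Lama2 and Itgb3 spread most.

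Differences of 2-fold or more were found among the sparse chains and not among the abundant ones. Over all features too, such differences in some pair were more frequent below 5 RPKM (26.3%) than at or above it (4.15%). Between caecum and ileum 6 of 34 members were apart (17.6%), 3 higher in the caecum and 3 in the ileum, where over all 17827 features compared the share was 7.11%, with 4.59% higher in the caecum and 2.52% in the ileum. Between caecum and colon 4 of 34 members were apart (11.8%), 1 higher in the caecum and 3 in the colon, against 7.84% of features, of which 5.11% were higher in the caecum and 2.74% in the colon. Between colon and ileum 4 of 33 were apart (12.1%), 3 higher in the colon and 1 in the ileum, against 8.33% of features, with 4.04% and 4.29% on the colon and ileum sides. The comparisons share libraries, so they are not independent counts.

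In all, 9 of 34 members (26.5%) were apart in at least 1 pair, against 13.7% of 18005 features. These were Lama2, Lama3, Lamc3, Itga11, Itgb2, Itgb3, Itgb4, Itgb6 and Itgb7. None of the 14 members that reached 5 RPKM in a library was among them, while 4.15% of all features at that level were apart in some pair. Below 5 RPKM 9 of 20 members (45.0%) were apart, against 26.3% of features. The limit of 5 RPKM was chosen after the values were seen. By family, 3 of 11 laminins, 1 of 15 integrin alpha chains and 5 of 8 integrin beta chains with enough counts were apart in a pair. The share over all features was 13.7%, and the 5 beta chains were all below 5 RPKM. With a limit of 1.5-fold, 12 members were apart between caecum and ileum, 6 on each side, against 15.4% of features (9.45% caecum, 5.91% ileum). Between caecum and colon 6 were, 2 higher in the caecum and 4 in the colon, against 15.5% (9.55% and 5.92%), and between colon and ileum 12 were, 8 higher in the colon and 4 in the ileum, against 15.9% (8.02% and 7.88%). With the whole interval beyond 2-fold, 4, 4 and 2 members were apart in these pairs, against 3.53%, 4.14% and 4.37% of features. By side these were 2 in the caecum and 2 in the ileum (2.23% and 1.31% of features), 1 in the caecum and 3 in the colon (2.86% and 1.28% of features), and 1 in the colon and 1 in the ileum (1.97% and 2.40% of features). The median log2 fold of the members was -0.06 for caecum over ileum, -0.15 for caecum over colon and 0.13 for colon over ileum, and that of all features was within 0.01 of no difference in each pair.

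**Figure D2:**
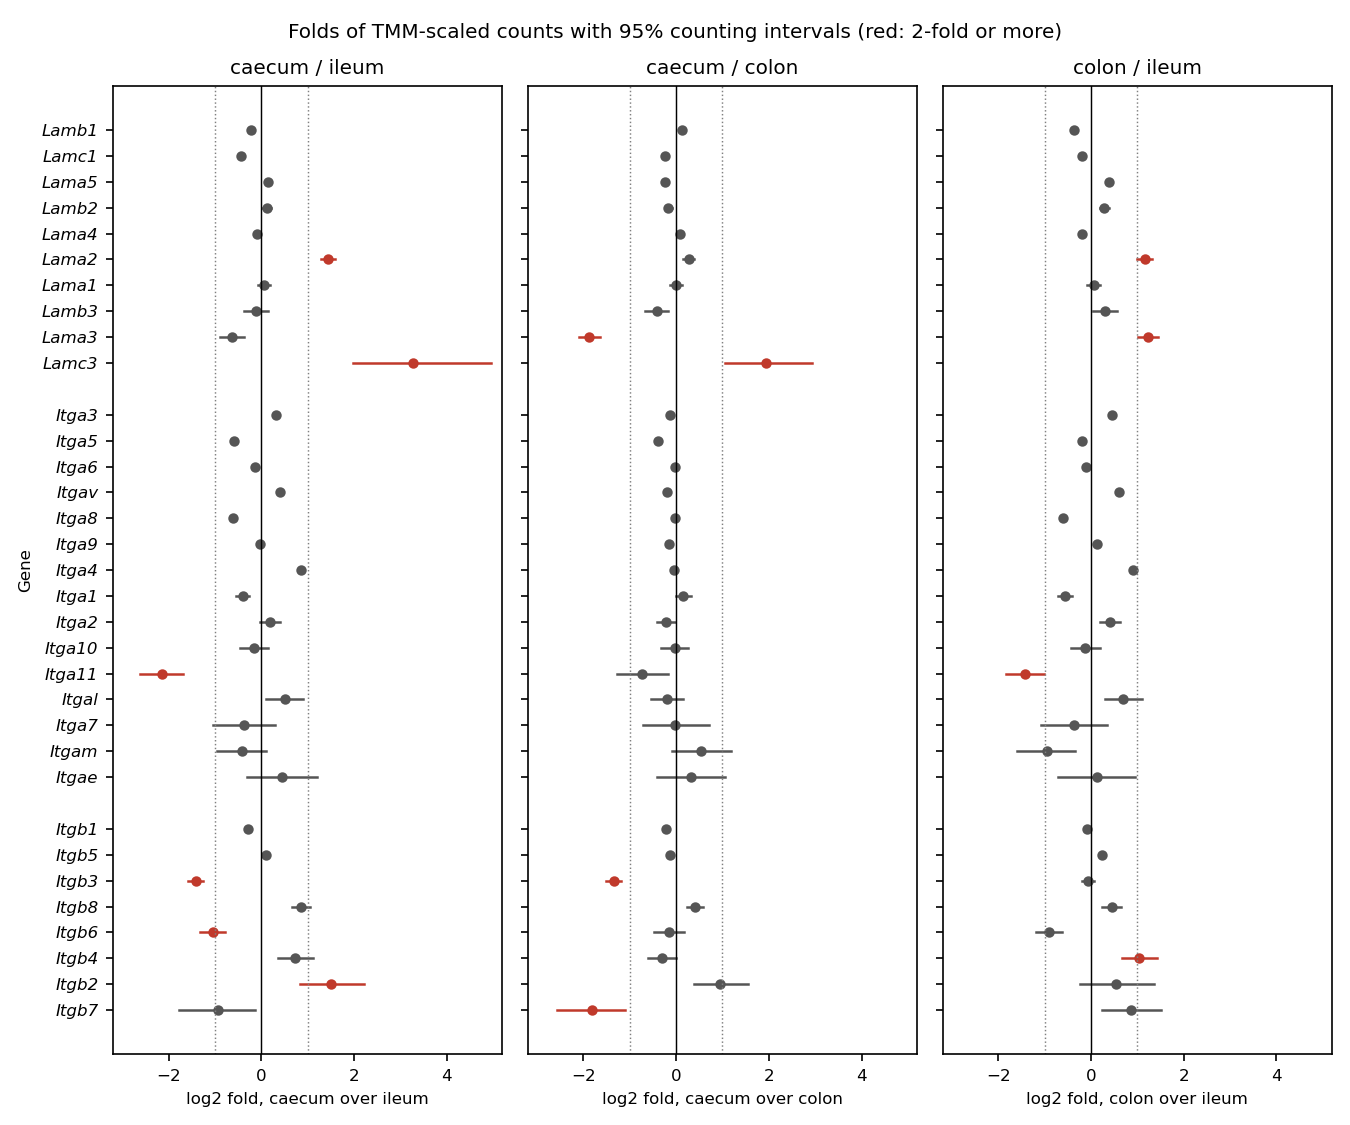
Log2 fold of 33 members in 3 panels, one per pair of libraries, with 95% counting intervals as bars and members at 2-fold or more in red. Dotted lines mark 2-fold either way, and Lamc3 has no value for colon over ileum because both counts were below 20.

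**Figure D3:**
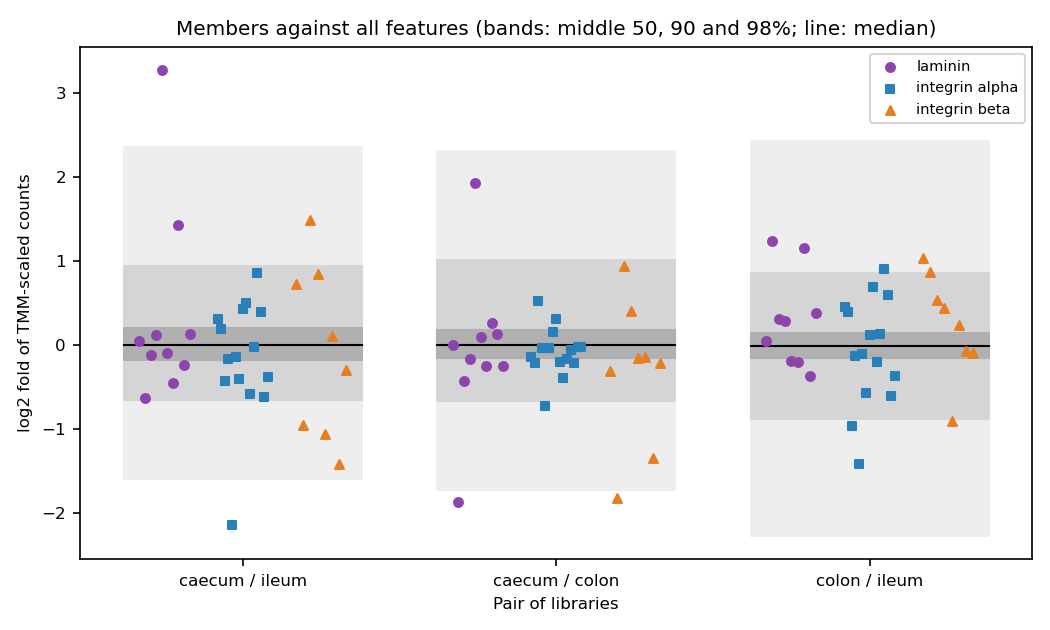
Log2 folds of 33 members (points, by family) over the spread of all features compared (grey bands, middle 50, 90 and 98%; black line, median) in each pair of libraries. Lamc3 and Itga11 lie outside the widest band for caecum over ileum, and Lama3 and Itgb7 for caecum over colon.

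Among the laminin alpha chains, Lama5 and Lama4 made up most of the RNA in each segment and Lama2 and Lama3 differed most. Lama5, the broadly expressed epithelial chain, had 11.4 RPKM in the ileum, 12.7 in the caecum and 15.1 in the colon, or 53.9%, 53.9% and 58.0% of the summed RPKM of the 5 alpha chains. Lama4, a chain of vessels and mesenchyme, had 6.63, 6.28 and 5.90 RPKM and 31.4%, 26.6% and 22.6% of that sum. Lama1, the chain of the early embryo's basement membranes, was level across the segments at 1.71, 1.80 and 1.80 RPKM, with every interval including no difference.

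Lama2, the alpha chain of muscle laminin, had 444 counts in the ileum, 1558 in the caecum and 1022 in the colon. The ileum was the low library. Against the ileum, Lama2 was up 2.70-fold (2.43 to 3.005) in the caecum and 2.24-fold (1.999 to 2.51) in the colon, and caecum exceeded colon by 1.21-fold (1.11 to 1.31). Its share of the alpha chain RNA was 4.31% in the ileum, 10.5% in the caecum and 7.94% in the colon. Lama2 (ENSMUSG00000019899) spans chromosome 10, 26701094 to 27336748, on the minus strand of mm9. Most smooth muscle genes ran the other way: the summed level of the 8 genes of that list was 1102, 425 and 581 RPKM. Of the 8, 6, Actg2, Myh11 and Cnn1 among them, had at least 2-fold more RNA in ileum than caecum. Des, in the same list, was highest in the caecum as Lama2 was, at 9.185, 12.8 and 8.23 RPKM. In the list of 6 mesenchyme genes, summing to 483, 437 and 509 RPKM, only Twist1, a transcription factor, was apart, lower in the ileum by 3.10-fold (2.63 to 3.67) against the caecum and by 4.29-fold (3.65 to 5.07) against the colon. The part of either cell type in the Lama2 values was not tested.

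The window before the start of Lama2 is shown with that of Itgb6, an integrin beta chain described further on, because these are the members whose upstream window holds a match to the CArG box, the site of serum response factor, while their RNA differed in opposite directions between ileum and caecum. Both are RefSeq sequences of build GRCm38.p6, not of the mm9 build of the table. Each runs 5′ to 3′ over the 250 bases before an annotated start on the minus strand, with the CArG match in capitals.
Lama2 (chr10:27616943-27617192): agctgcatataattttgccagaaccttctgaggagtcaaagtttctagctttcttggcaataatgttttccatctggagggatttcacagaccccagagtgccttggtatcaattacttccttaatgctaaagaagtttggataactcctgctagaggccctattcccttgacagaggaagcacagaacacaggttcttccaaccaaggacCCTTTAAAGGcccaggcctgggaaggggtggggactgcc
Itgb6 (chr2:60673694-60673943): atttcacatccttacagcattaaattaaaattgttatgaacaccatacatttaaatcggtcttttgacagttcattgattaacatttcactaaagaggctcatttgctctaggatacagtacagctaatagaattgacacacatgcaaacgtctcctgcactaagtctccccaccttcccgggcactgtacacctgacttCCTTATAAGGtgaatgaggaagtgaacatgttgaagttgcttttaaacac

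The match begins 39 bases before the start in Lama2 and 50 bases before the start shown for Itgb6. Itgb6 has another annotated start, whose window (chr2:60722604-60722853) holds no match. On the minus strand that other start lies upstream. The Itgb6 sequence shown is thus not the window of its outermost annotated start. Of the 36 members, 22 had an entry in the promoter table, with 25 windows in all. On either strand, the CArG box was in 1.47% of the table's 32851 windows, GGGCGG in 32.7%, TATAAA in 12.4% and TGANTCA in 6.75%. Among the 25 windows of members these were in 2, 9, 0 and 1. The TGANTCA match lies before Itgax, and GGGCGG was found before Itga3, Itga4, Itga5, Itgam, Itgb1, Itgb5, Lama5 and Lamb1. The 4 motifs were picked with the values known, a match is a run of letters and not a site shown to be bound, and no match says only that these letters are not in the window.

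Lama3 and Lamb3 encode chains of a laminin that anchors epithelia to hemidesmosomes, and Lama3 stood apart in the colon. Lama3 had 257 counts in the ileum, 216 in the caecum and 624 in the colon. Only the colon library was high. Lama3 exceeded its caecum level 3.65-fold (3.12 to 4.28) in the colon. Colon exceeded ileum by 2.36-fold (2.04 to 2.74), and ileum exceeded caecum by 1.55-fold (1.29 to 1.86). Lamb3, the beta chain, had 224, 270 and 286 counts and was within 1.34-fold in every pair. Per length, Lamb3 had 1.03, 0.958 and 1.29 RPKM and Lama3 0.487, 0.319 and 1.17 RPKM in the ileum, the caecum and the colon.

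Itgb4, the beta chain of the hemidesmosome receptor, was lowest in the ileum and had 86 counts in the ileum, 186 in the caecum and 182 in the colon. Caecum and colon lay close together. Over the ileum, Itgb4 gained 2.06-fold (1.58 to 2.69) in the colon and 1.66-fold (1.28 to 2.17) in the caecum. Col17a1, a membrane collagen of hemidesmosomes, had 64, 66 and 136 counts and exceeded its caecum level 2.60-fold (1.93 to 3.55) in the colon, and its ileum level 2.07-fold (1.52 to 2.83). Itga6, the alpha partner of Itgb4 that also pairs with Itgb1, was level at 14.1, 13.0 and 13.3 RPKM, far above the 0.246, 0.410 and 0.511 RPKM of Itgb4. Plec and Cd151, a linker and a tetraspanin of the same junction, were within 2-fold in every pair.

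Summed levels of epithelial markers, and of basal and urothelial markers, were highest in the colon library, but the epithelial genes did not move together. The 9 epithelial genes summed to 206 RPKM in the ileum, 210 in the caecum and 246 in the colon. Krt19, a keratin of simple epithelia, was 2.16-fold (2.05 to 2.28) more abundant in colon than ileum, and Elf3, an epithelial transcription factor, was at least 2-fold more abundant in ileum than caecum. Epcam, Elf3, Cldn7 and Esrp1 had lower RPKM in the colon than the ileum, with Epcam, an epithelial adhesion gene, at 36.3 against 49.99. The 8 genes of basal keratinocytes and urothelium summed to 8.06, 10.7 and 15.7 RPKM. Most of each sum was Upk1b, which is also in the mesothelial list, at 5.80, 8.13 and 9.435 RPKM. Of the 8 genes, Krt15 had 51, 56 and 337 counts and Krt14 had 43, 64 and 94. The defining basal genes Krt5 and Trp63 stayed at or below 15 counts in every library, with Krt5 at 0 in the ileum. The part of epithelial, basal or urothelial cells in the Lama3 and Itgb4 values was not tested. Lama3 (ENSMUSG00000024421) lies at chromosome 18, 12492533 to 12741522, on the plus strand, and Itgb4 (ENSMUSG00000020758) at chromosome 11, 115836023 to 115869726, on the plus strand of mm9.

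Lamc3, a gamma chain found in few tissues, was nearly confined to the caecum library but was sparse. It had 5 counts in the ileum, 63 in the caecum and 13 in the colon. Lamc3 exceeded its ileum level 9.69-fold (3.94 to 30.9) in the caecum, and its colon level 3.83-fold (2.09 to 7.59), the highest folds of any member on the caecum side. At 0.016, 0.160 and 0.042 RPKM it was far below Lamc1 in every segment. Lamc3 (ENSMUSG00000026840) spans chromosome 2, 31742811 to 31802059, on the plus strand.

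The chains shared by most laminins differed by less than 1.4-fold. For Lamc1 the ileum exceeded the caecum by 1.36-fold (1.33 to 1.40) and the colon by 1.15-fold (1.12 to 1.17). For Lamb1 it did so by 1.17-fold (1.15 to 1.195) and 1.29-fold (1.26 to 1.31). Lamb2, the beta chain of muscle and vessel laminins, ran the other way, with colon over ileum at 1.22-fold (1.15 to 1.30). Lamb1 thus held 85%, 81.9% and 78.2% and Lamb2 13.0%, 16.0% and 18.8% of the beta chain RNA in the ileum, caecum and colon.

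**Figure D4:**
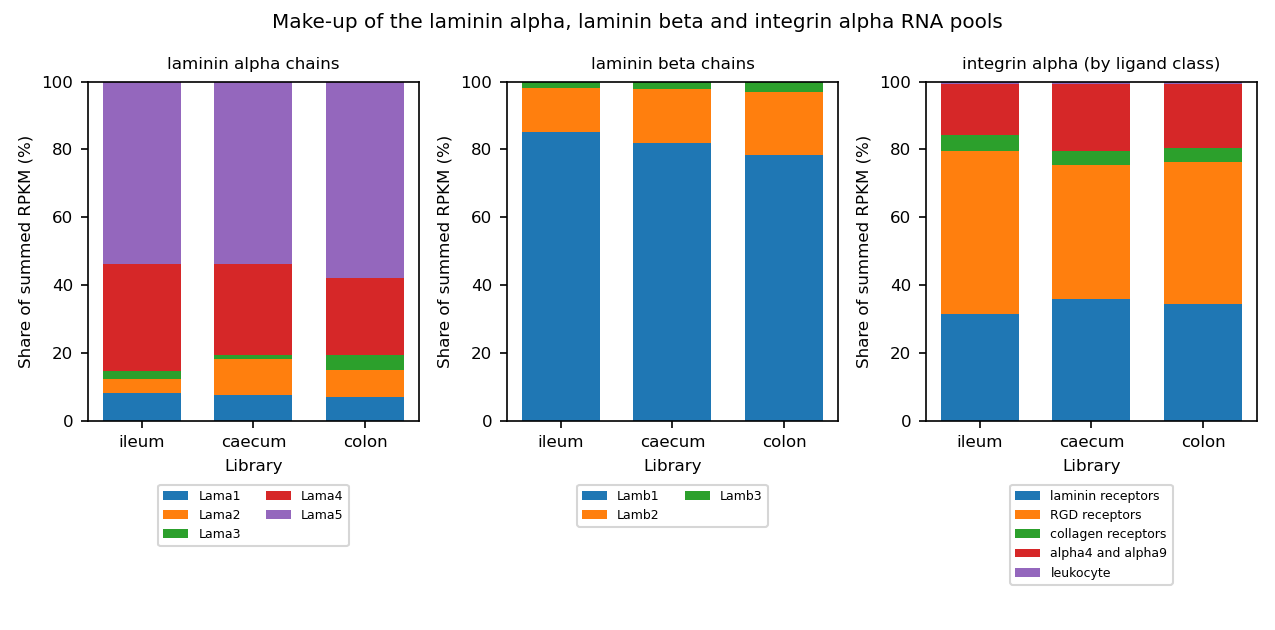
Share of the summed RPKM taken by each laminin alpha and beta chain and by each ligand class of integrin alpha chains (stacked bars from 0 to 100%), 1 bar per library. Lama2 widens from 4.31% in the ileum to 10.5% in the caecum, and the class of RGD receptors narrows from 47.9% to 39.6%.

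Of the integrin alpha chains that bind laminin, Itga3 was highest in the colon, Itga6 was level and Itga7 was sparse. Itga3, an epithelial chain, had 5102 counts in the ileum, 8237 in the caecum and 7189 in the colon. Its level per library size was lowest in the ileum, which the caecum exceeded by 1.24-fold (1.198 to 1.29) and the colon by 1.37-fold (1.32 to 1.42). Itga7, the laminin receptor chain of muscle, had 40, 40 and 32 counts, and all its intervals included no difference. Together the class held 31.5%, 35.8% and 34.4% of integrin alpha RNA by RPKM.

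The alpha chains that recognise the RGD motif, as in fibronectin, did not move together. Itga5, the classical fibronectin receptor chain, had 24.3 RPKM in the ileum, 16.4 in the caecum and 21.5 in the colon, and exceeded its caecum level 1.49-fold (1.44 to 1.55) in the ileum. Itga8, a receptor chain of mesenchyme and smooth muscle, had 14.6, 9.64 and 9.80 RPKM. The ileum exceeded the caecum by 1.54-fold (1.48 to 1.60) and the colon by 1.52-fold (1.45 to 1.58). Itgav, which pairs with several beta chains, was lowest in the ileum at 9.92 RPKM, with 13.2 in the caecum and 15.3 in the colon, and exceeded its ileum level 1.52-fold (1.47 to 1.57) in the colon. The class held 47.9%, 39.6% and 42.0% of integrin alpha RNA.

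Among the collagen receptor chains Itga11 was the exception to a flat pattern. Itga11, a chain of fibroblasts that binds fibrillar collagen, had 176 counts in the ileum, 52 in the caecum and 68 in the colon. The ileum library was high, 4.40-fold (3.21 to 6.12) above the caecum and 2.66-fold (2.002 to 3.58) above the colon. No other alpha chain reached 2-fold in any pair. Itga1, found on smooth muscle, leaned the same way at 868, 855 and 606 counts, with the ileum 1.32-fold (1.2 to 1.45) over the caecum and 1.47-fold (1.33 to 1.64) over the colon. Itga2, an epithelial and platelet chain, had 304, 452 and 414 counts and exceeded its ileum level 1.32-fold (1.14 to 1.54) in the colon. Itga10, a chain of cartilage, was level at 180, 210 and 170 counts, which are uncertain because its span overlaps another gene. Itga1 likewise overlaps Pelo by 1832 bases on the same strand, and Pelo had 505, 690 and 502 counts, so the Itga1 values are uncertain too.

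By RPKM, of the 15 integrin alpha chains with enough counts, 8 were highest in the ileum, 6 in the colon and 1 in the caecum. The 8 were Itga1, Itga5, Itga6, Itga7, Itga8, Itga10, Itga11 and Itgam. Among them Itga6 was no more than 1.10-fold above another segment. Itga7 and Itga10 had intervals that included no difference in every pair, and Itgam had such an interval against the caecum. The share of all features highest in the ileum was not computed. The summed smooth muscle list was highest in the ileum as well. In it 6 of 8 genes favoured ileum over caecum, and 5 of 8 ileum over colon, by 2-fold or more, while Des was highest in the caecum. Myh11, a smooth muscle myosin, had in the ileum 3.03 times (2.98 to 3.09) its caecum level and 3.12 times (3.06 to 3.18) its colon level. The part of smooth muscle in these integrin values was not tested. Itga11 (ENSMUSG00000032243) lies at chromosome 9, 62525633 to 62631789, on the plus strand.

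Itga4, whose product binds fibronectin and VCAM1, came closest to 2-fold among the abundant chains. It had 3465 counts in the ileum, 8196 in the caecum and 6719 in the colon, so the ileum was low. The caecum exceeded it by 1.82-fold (1.75 to 1.89) and the colon by 1.88-fold (1.81 to 1.96). Caecum and colon differed by 1.04-fold (1.003 to 1.07). Cerkl, which overlaps Itga4 by 2581 bases on the other strand, had 370, 823 and 726 counts, and whether reads were assigned by strand was not given in the sources used here. Markers of enteric neural crest and neurons, cells that carry Itga4, had 114, 132 and 73.6 RPKM summed over 9 genes. Of these, 4 were at least 2-fold lower in the colon than in the ileum. Ret, at 20.95, 28.7 and 23.5 RPKM, Erbb3 and the sparse S100b were lowest in the ileum as Itga4 was, and the others lowest in the colon. The part of these cells in the Itga4 values was not tested. Itga9, the related chain that binds tenascin, was level at 10.5, 10.4 and 11.7 RPKM.

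Leukocyte integrins were at the edge of detection. Itgal had 82, 151 and 137 counts, Itgam 64, 62 and 34 and Itgae 25, 44 and 28, and none was 2-fold apart. Itgad had 6, 10 and 12 counts and Itgax 0, 2 and 0. Itgb2, the beta chain they share apart from Itgae, had 24 counts in the ileum, 88 in the caecum and 36 in the colon, highest in the caecum, where it was 2.82-fold (1.78 to 4.63) above the ileum and 1.93-fold (1.30 to 2.94) above the colon. The 9 macrophage genes summed to 18.8, 19.9 and 21.3 RPKM. Of these Lyz2, a lysozyme gene, was the 1 apart, lower in caecum than colon. Tyrobp, a signalling adaptor of myeloid cells, was highest in the caecum as Itgb2 was, by 1.78-fold (1.28 to 2.51) over the ileum and 1.57-fold (1.15 to 2.17) over the colon. Cd68 was also highest there at 2.76, 4.10 and 3.13 RPKM, while Csf1r, the receptor that defines macrophages, had 4.05, 4.24 and 4.24 RPKM. Of the 9 granulocyte and lymphoid genes, summing to 1.92, 3.55 and 1.94 RPKM, Mpo, an enzyme gene of neutrophils, was at 8, 118 and 0 counts and Il7r, a lymphoid receptor gene, at 7, 40 and 6, both highest in the caecum. The part of such cells in the Itgb2 values was not tested. Itgb2 (ENSMUSG00000000290) lies at chromosome 10, 76992997 to 77028453, on the plus strand.

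Itgb7, the beta partner of Itga4 and Itgae on lymphocytes, was highest in the colon, with 34 counts in the ileum, 23 in the caecum and 64 in the colon. Colon exceeded caecum by 3.52-fold (2.15 to 5.94) and ileum by 1.83-fold (1.19 to 2.86). Cd3e, which defines T cells, had 0 counts in all 3 libraries. Itgb7 (ENSMUSG00000001281) lies at chromosome 15, 102046426 to 102062366, on the minus strand.

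The beta partners of Itgav differed in which segment was highest. Itgb3, a chain of platelets, vessels and osteoclasts, had 940 counts in the ileum, 460 in the caecum and 922 in the colon. Here the caecum was the low library, and ileum and colon were alike to within 1.05-fold (0.957 to 1.15). Over the caecum, Itgb3 gained 2.66-fold (2.38 to 2.98) in the ileum and 2.53-fold (2.26 to 2.84) in the colon. It was the only member with 2-fold or more between the caecum and both of its neighbours on the low side, as Lamc3 was on the high side. Itgb3 (ENSMUSG00000020689) lies at chromosome 11, 104469370 to 104531790, on the plus strand.

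Of the pericyte genes, 3 of 6 showed the same dip in the caecum library, and no endothelial or platelet gene did so by 2-fold. The 6 pericyte genes summed to 89.1, 43.0 and 84.1 RPKM, and Rgs5, Abcc9 and Kcnj8 were each below ileum and colon by 2-fold or more in the caecum. Rgs5, a regulator of G protein signalling, had 4424, 899 and 3772 counts. The others were within 2-fold: Pdgfrb was lowest in the caecum at 24.5, 15.7 and 24.7 RPKM, Notch3 was highest there at 9.90, 12.1 and 11.0 RPKM, and Cspg4 had 3.21, 2.80 and 2.52 RPKM. Of 9 endothelial genes, at 64.7, 64.6 and 79.1 RPKM, and of the 4 platelet genes with enough counts in a list summing to 4.63, 4.99 and 3.86 RPKM, 0 were apart in any pair. Itga2b, the platelet partner of Itgb3, which falls outside the symbol rule, had 92, 189 and 164 counts and was lowest in the ileum. The part of pericytes in the Itgb3 values was not tested.

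Itgb6, an epithelial chain that activates latent TGF-beta together with Itgav, had 290 counts in the ileum, 182 in the caecum and 160 in the colon. It was highest in the ileum, by 2.07-fold (1.72 to 2.51) over the caecum and 1.86-fold (1.53 to 2.28) over the colon. Itgb8, which activates the same ligand from other cell types, ran opposite with 338, 794 and 474 counts, and exceeded its ileum level 1.81-fold (1.59 to 2.06) in the caecum, and its colon level 1.32-fold (1.18 to 1.49). Per length, Itgb6 exceeded Itgb8 in the ileum, at 0.813 against 0.611 RPKM, and Itgb8 exceeded Itgb6 in the caecum, at 1.11 against 0.396, and in the colon, at 0.843 against 0.443. Itgb6 (ENSMUSG00000026971) lies at chromosome 2, 60436349 to 60560700, on the minus strand. Of 9 genes for TGF-beta ligands and latent complex proteins, none was apart between caecum and ileum or colon and ileum, and Ltbp2 exceeded its colon level 2.85-fold (1.95 to 4.27) in the caecum.

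Itgb1 had 44986, 47655 and 43676 counts and exceeded its caecum level 1.23-fold (1.21 to 1.24) in the ileum. Its RPKM was 2.17, 1.84 and 1.91 times the summed RPKM of the 12 alpha chains known to pair with it, so it exceeded their sum in each segment. Itgb1 held 88.3%, 85.9% and 86.0% of the beta chain RNA, and Itgb5 9.61%, 12.4% and 11.7%.

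Ligands of these integrins were mostly lower in the ileum where they differed. Of 26 ligand genes with enough counts, 6 were 2-fold or more higher in caecum than ileum (Tnc, Postn, Vtn, Egfl6, Nov and Fn1) and 1, Spp1, was lower. Over all features the shares were 4.59% and 2.52%. Of the 6, Vtn had only 13, 72 and 21 counts and Nov 42, 157 and 208. Caecum and colon differed in Vtn and Spp1, where 7.84% of features were apart. Between colon and ileum 4 were higher in the colon (Tnc, Nov, Spp1 and Egfl6) and 0 in the ileum, against 4.04% and 4.29% of features. The median log2 fold of the 26 ligand genes was 0.32 for caecum over ileum, -0.13 for caecum over colon, and 0.58 for colon over ileum. Tnc, which encodes tenascin C, a ligand of Itga9, Itga8 and Itgav, had 350, 3420 and 2750 counts. Over the ileum, Tnc gained 7.51-fold (6.73 to 8.41) in the caecum and 7.64-fold (6.83 to 8.56) in the colon.

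Set beside their receptors, ligands and receptor chains did not follow one order. Fn1, fibronectin, had 55.6 RPKM in the ileum, 114 in the caecum and 97.0 in the colon, while its receptor chain Itga5 was lowest in the caecum and Itga4 lowest in the ileum. Npnt, nephronectin, the ligand of Itga8, was level at 21.9, 23.7 and 23.4 RPKM. Egfl6, a matrix protein also bound by Itga8, had 100, 533 and 238 counts and exceeded its ileum level 4.10-fold (3.30 to 5.13) in the caecum, while Itga8 was highest in the ileum. Spp1, osteopontin, a ligand of Itgav pairs and of Itga4 and Itga9, had 38, 22 and 125 counts and exceeded its caecum level 7.18-fold (4.54 to 11.9) in the colon. Vcam1, the partner of Itga4 on other cells, had 4.05, 5.30 and 6.45 RPKM, and was within 2-fold in every pair.

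Among other components of basement membranes, collagen IV chains differed most often. Of 21 genes, 5 were 2-fold or more higher in caecum than ileum and 0 lower, with a median log2 fold of 0.10. Over all features 4.59% were higher in the caecum and 2.52% in the ileum. Between caecum and colon 3 were higher in the caecum and 0 in the colon, against 5.11% and 2.74% of features. Between colon and ileum 4 were higher in the colon and 2 in the ileum, against 4.04% and 4.29% of features. Those higher in caecum than ileum were the collagen IV chains Col4a3, Col4a4, Col4a5 and Col4a6 and Frem1, a protein of the Fraser complex. Col4a3 and Col4a4 were sparse, with 6, 24 and 34 and with 6, 40 and 53 counts, and both were highest in the colon. Their folds of caecum over ileum, 3.075 (1.225 to 9.20) and 5.125 (2.16 to 14.8), had wide intervals. Col4a5 had 10.3, 36.9 and 24.5 RPKM and Col4a6 1.19, 7.59 and 2.90 RPKM, both lowest in the ileum, as Lama2 was. Col4a6 exceeded its ileum level 6.31-fold (5.73 to 6.95) in the caecum, and its colon level 2.63-fold (2.46 to 2.81). Col4a1 and Col4a2, the common chains of collagen IV, and Nid1, Nid2 and Hspg2, which link laminin to collagen IV, were within 2-fold in every pair, as Lamb1 and Lamc1 were.

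Few proteins that join integrins to the skeleton were apart. Of 29 adaptor genes, 0 were 2-fold apart between caecum and ileum, where 7.11% of all features were. Col17a1 was the only one in the other pairs. There 7.84% of features were apart between caecum and colon, and 8.33% between colon and ileum. With so few genes in the list, the low counts are not read as a trait of adaptors. Tln1, talin, which switches integrins on, had 18.9, 17.8 and 21.4 RPKM. Fermt2, a kindlin, and Vcl, vinculin, were within 2-fold and highest in the ileum, at 75.8, 49.9 and 58.0 RPKM and at 48.5, 32.0 and 37.0 RPKM. Most smooth muscle genes were also highest there, and their part in these values was not tested.

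Family genes outside the symbol rule were Itga2b, Itgb2l and Itgbl1. Itgb2l, a gene resembling Itgb2, had 15, 40 and 41 counts and exceeded its ileum level 2.66-fold (1.44 to 5.17) in the colon. Itgbl1, which encodes a secreted protein with integrin beta-like repeats, had 22 counts in the ileum, 10 in the caecum and 1 in the colon, and with so few the 22.6-fold difference between ileum and colon had an interval from 3.66 to 934.

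Some members lie side by side in the genome. Itga1 and Itga2 lie 26037 bases apart on chromosome 13, and Itga1 was highest in the ileum and Itga2 in the colon. Itgam, Itgax and Itgad follow each other on chromosome 7. The spans of the 9 members at 2-fold or more overlap no feature with more than 6 counts in a library. Itga8, Itga9, Itgae and Lamc1, like Itga4, overlap features with more than 100 counts on the other strand, so part of their counts may belong to those.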

How the data were processed

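Polyadenylated RNA of 3 segments was read as paired ends of 100 bp, per the labels. Build mm9 and the tools DESeq and Bowtie 0.12.7 are listed in the submitters' processing notes, without their roles. The counting program, the annotation and any strand setting were not given in the sources used here. Per the file headers, the authors deposited counts per gene, which are expected counts with fractions of 0.5, and RPKM values, which the authors scaled by length and depth. The 2 columns of a sample had a mean squared difference of 0.422 (ileum), 0.449 (caecum) and 0.438 (colon) times the counting variance, so they were averaged and rounded to whole counts. Libraries were scaled by TMM (edgeR 4.0.16, R 4.3.3) over all 33762 features. Fold intervals are Clopper-Pearson (exact binomial on each pair of counts, scipy 1.17.1). They were tested only on counts simulated with the counting error that they assume. That test checks the computation and not how well the intervals suit these data. The DESeq2 1.42.0 size factors served as an alternative. The table's starts, counted from 0, were raised by 1. Members and lists were chosen with earlier results of these data known. Folds are given for members 2-fold apart and their partner chains. One member, included in the counts, is not reported here. Of 19 lists, 2 to 4 genes each were to be named, those with the largest bounds, and others named as ligands or linkers of a member were chosen after values were seen. Lists of erythroid, striated muscle and mesothelial genes had 0, 1 and 0 genes apart between caecum and ileum. Between caecum and colon these were 0, 1 and 1, and between colon and ileum 0, 2 and 1.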

Additional observations from a re-analysis of the deposited data

How the results depend on the processing

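No paired analysis was possible because each segment has 1 sample and no test across samples was made. Under DESeq2 size factors, total counts, the authors' RPKM ratios and single columns, no member at 2-fold or more reversed. From column 2 only, 2 members were higher in caecum than colon (Itgb2 added), and from column 1 only, 2 were higher in ileum than colon (Itgam added), each against 1. With column 1 only, Itgb6 for ileum over caecum and Itgb4 for colon over ileum fell to 1.92-fold and 1.94-fold, below the limit, and Itgb7 for ileum over caecum passed it at 2.04-fold. With a minimum of 100 counts, 1 member was higher in caecum than ileum, and 2 were apart between caecum and colon, 0 of them higher in the caecum, since Lamc3, Itgb2 and Itgb7 no longer enter. With intervals wholly beyond 2-fold, colon and ileum had 2 members apart, 1 of them higher in the colon. At 1.5-fold or more, 12 members were apart between caecum and ileum (6 and 6), where 15.4% of features were, and 12 between colon and ileum (8 higher in the colon, 4 in the ileum), where 15.9% were, with 2 members higher in caecum than colon. Depth limits the sparse members: below about 100 counts, as for Lamc3, Itgb2 and Itgb7, intervals span more than 2-fold.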
